A study of Mus musculus with 12 samples.

Results

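The data were hippocampal RNA levels in 6 outbred hsd:ICR (ICR) mice, each measured on its own Affymetrix Mouse Gene 1.0 ST array, and the question was how far these 6 animals differed from one another and in which genes. The 6 arrays were chosen by the mouse line in the sample labels, out of 12 arrays in all. The other 6 arrays held hippocampi of Madison (MSN) mice, an inbred line that descends from ICR and shows a manic phenotype. All mice were adult males of about the same age, drawn at random from animals whose behavior had been observed before. Every sample was macrodissected hippocampus of a separate animal, so that the cell types of the tissue and any adjoining tissue taken with it were measured together. Levels were not tested between the lines. MSN values stand beside those of ICR mice as a second set of 6 arrays that played no part in choosing the 200 clusters described, and only the size of the deviations among mice was compared by a test.

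An outbred stock is kept by mating animals that are not close relatives, so that several alleles of many genes stay in the colony and any 2 animals carry different sets of them. In a bulk sample of hippocampus, the level of a gene can differ between animals with the genotype at that gene, with the state of the cells, and with the amounts of choroid plexus, ependyma, meninges or neighbouring brain that come along with the dissection. The choroid plexus is the epithelium that makes cerebrospinal fluid inside the ventricles and lies against the hippocampus. The hippocampus itself is made of the pyramidal cell fields CA1 to CA3 and the granule cells of the dentate gyrus.

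The unit described is the transcript cluster, a set of probes along a gene that gives 1 intensity per array. Of 35556 clusters, 21789 had 1 gene in the platform table, and 18628 of these, from 17036 genes, also had a mean of 7 or more in ICR mice on the scale of log2(intensity + 16). Spread was measured as the SD of that log2 value over the 6 mice, and the 200 clusters with the highest SD, which stood for 174 genes, were examined in detail. Because the SD chose them, their SDs in ICR mice are a description and were not tested. Snord14e, at rank 200, had an SD of 0.327512, and Socs2, the next in rank and just outside, had an SD of 0.327278.

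Markers of the hippocampus were well above the mean log2 of 7 in all 6 mice. Prox1, a transcription factor of dentate granule cells, had intensities from 923 to 1415, and Wfs1, a marker of CA1 pyramidal cells, had intensities from 2155 to 3015. Median intensities of the ICR arrays were 283 to 298, correlations of all log2 values between pairs of ICR arrays were 0.991 to 0.997, and 1.90% to 2.05% of clusters were below an intensity of 16. Arrays have no read depth, so their number, 6, limits the precision of each SD.

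Before any gene was singled out, the array of ICR mouse 3 was the one most often far from the others, with that of mouse 2 next. By the median absolute deviation over all clusters the 2 were close, at 0.0608 and 0.0582 log2 units for mice 3 and 2. Mouse 3 lay farthest from the median of the 6 mice in 24.6% of all eligible clusters and in 100 of the 200 (50%). Mouse 2 lay farthest in 19.8% of eligible clusters and in 60 of the 200 (30%), and the other 4 mice lay farthest in 5 to 12 of the 200 each. Without mouse 3, 120 of the 200 clusters remained among the 200 with the highest SD, and without mouse 2, 159 remained. Results that rest on these mice are therefore given with and without them.

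The typical gene varied little. The median SD over the 18628 clusters was 0.0797, and 1 SD at that median was a 1.06-fold difference in intensity plus 16. The middle of the distribution ran from 0.0572 at the 25th percentile to 0.112 at the 75th percentile, and the 99th percentile was 0.331. Without mouse 3 the 99th percentile was 0.287, and without mouse 2 it was 0.318. The median SD fell with the level, from 0.0979 for clusters with a mean log2 of 7 to 8 to 0.0544 for those at 12 or more. An SD above 0.5 was seen for 46 clusters, for 31 clusters without mouse 3 and for 34 without mouse 2.

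The 6 MSN arrays gave nearly the same median SD, 0.0808 for the same clusters, but a lower upper end. The 95th percentile was 0.171 in MSN and 0.195 in ICR mice, and the 99th was 0.264 and 0.331. An SD above 0.5 was seen for 31 clusters in MSN mice and 46 in ICR mice. These differences were not tested. In each mouse the median absolute deviation from the mean of its own line was taken over 18584 clusters with a mean log2 of 7 or more across all 12 mice. It was 0.0529 ± 0.00563 (SD, n = 6) in ICR mice and 0.0533 ± 0.0104 (SD, n = 6) in MSN mice. The difference of -0.000467 was smaller than the spread between mice (exact two-sided permutation test, P-value = 0.935, smallest possible P-value 0.00216). The 6 values of a line share the mean they were taken from, so they are not fully independent. A median over 18584 clusters describes the typical cluster and says nothing of the few that varied most. Among ICR mice the deviation was highest in mouse 3, at 0.0608, and lowest in mouse 6, at 0.0471.

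The head of the ranking was taken by genes that were high in mouse 3 alone. Of the 15 genes with the highest SD, 9 were of this kind, namely Gabra6, Cbln3, Ppp1r17, Arhgef33, Car8, Cbln1, En2, Exph5 and Fat2. Gabra6, the alpha 6 subunit of the GABA-A receptor found in cerebellar granule cells, had intensities of 76.6, 71.3, 4983, 62.8, 58.8 and 88.7 in mice 1 to 6. Cbln3, a secreted synaptic protein of the same cells, had 178, 192, 4586, 166, 173 and 225. Ppp1r17, a phosphatase inhibitor of Purkinje cells, was at 1299 in mouse 3 and at 91.9 to 99.4 in the other 5 mice. The SD of Gabra6 was 2.39 over 6 mice and 0.192 without mouse 3, and that of Cbln3 was 1.85 and 0.159. En2, a homeobox factor of the midbrain and hindbrain, was at 673 in mouse 3 and at 122 to 135 in the others. In each of these 4 genes mouse 3 lay far above the range of the other 5 mice.

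**Figure D1:**
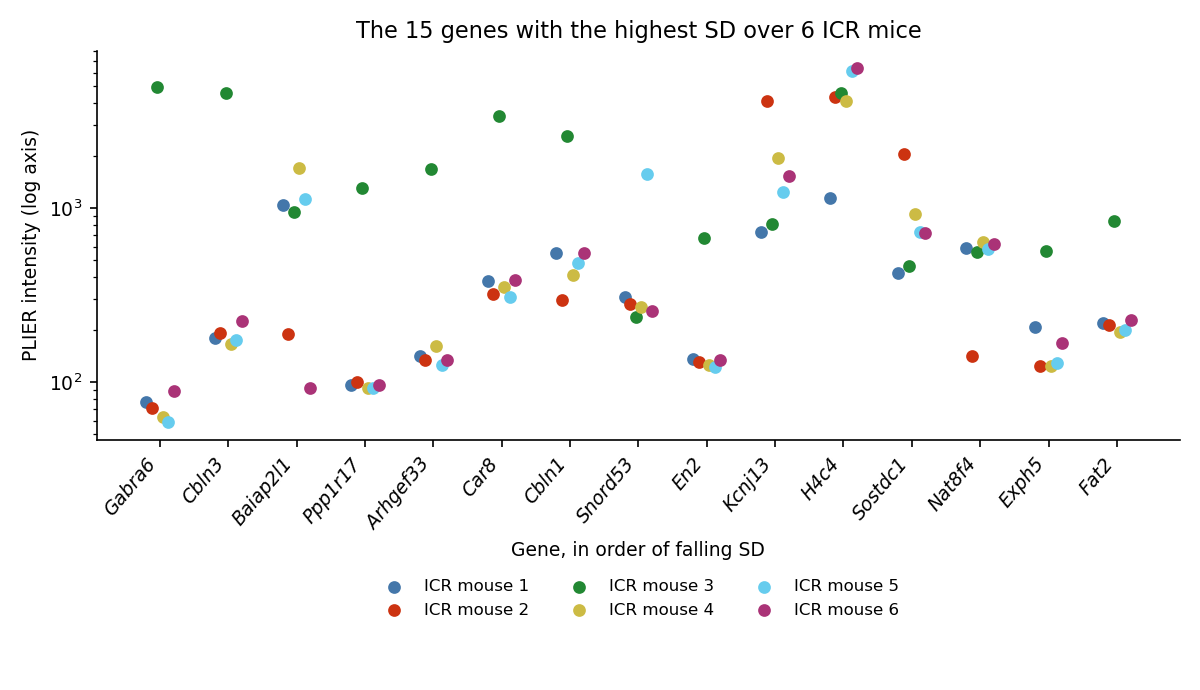
Intensity (log axis) of the 15 genes with the highest SD, in order of falling SD from left to right; each point is 1 of the 6 ICR mice. Mouse 3 lies far above the other 5 mice for Gabra6, Cbln3, Ppp1r17, Arhgef33, Car8, Cbln1, En2, Exph5 and Fat2, whereas Baiap2l1 splits into 4 high and 2 low mice and H4c4 and Nat8f4 each have 1 low mouse.

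The highest-ranked genes belonged to a larger set that moved together. Average-linkage clustering of the 200 clusters on their correlation over the 6 mice placed 137 of them in 5 groups with an average r of 0.8 or more and at least 5 genes. Correlations are frequent with only 6 mice. An absolute r of 0.9 or more was found in 13.8% of the 19900 pairs among the 200, beside 1.83% of the pairs of all eligible clusters. The choice by SD raises the first share, since 1 outlying mouse gives a high SD and a high r together. Pairs of clusters of the same gene raise it as well, and it was not computed without mouse 3. The first principal component of the 200 held 60.6% of their variance, with a score of 11.8 for mouse 3 and scores of -4.98 to -0.0395 for the others. The second held 20.5%, with 5.60 for mouse 2 at one end and -4.60 for mouse 1 at the other.

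The largest group had 67 clusters of 46 genes and had a mean deviation from the ICR mean of 1.06 log2 units in mouse 3 and of -0.247 to -0.180 in the other 5 mice. Its median SD was 0.400 with all 6 mice and 0.131 without mouse 3. Besides the genes above it held Pcp2, a Purkinje cell gene, Neurod1 and Pax6, transcription factors of granule cell lineages, Zic1 and Zic2, zinc finger factors of the cerebellum and other midline brain regions, and Pvalb, a calcium buffer of Purkinje cells and many interneurons. Neurod1 was at 3138 in mouse 3 and at 1045 to 1224 in the others, and Pvalb was at 2286 against 849 to 1001. Chd7, a chromatin remodeler, entered with 18 of its 30 eligible clusters and Unc13c, a synaptic vesicle priming protein, with 5 of 7, so that the number of clusters overstates the number of genes.

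In the 6 MSN mice the same 67 clusters had a median SD of 0.108 and a median correlation between pairs of 0.0904, compared with 0.933 between pairs in ICR mice. Zic1 and Zic2 varied more than that median in MSN mice, with SDs of 0.640 and 0.313 there and of 0.647 and 0.422 in ICR mice. A list of 36 genes known from cerebellar granule and Purkinje cells, written after the values of mouse 3 had been seen, had 32 eligible genes, of which 17 were among the 200 and 28 were highest in mouse 3. The other 4, Barhl1, Ebf2, Eomes and Zic4, were highest in mouse 2. Over all eligible genes, 16.7% were highest in mouse 3 and 25.5% in mouse 2. The summed intensity of the list was 48794 in mouse 3 and 19403 to 20144 in the other 5 mice. Its median SD was 0.312 with mouse 3 and 0.116 without it, beside 0.0796 over all eligible genes. Of the 200 clusters, 68 had an r of 0.8 or more with the mean profile of this list, a criterion met by 4.61% of eligible clusters. The count of 68 is raised by the choice by SD and by members of the list among the 200. Genes with several clusters raise it too, so it is a description only. How far cerebellar tissue in the sample of mouse 3 enters these values was not tested.

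The second group held 42 clusters of 42 genes and had mouse 2 at the top. Its mean deviation was 0.808 log2 units in mouse 2 and 0.160 in mouse 4, while in mice 1 and 3 it was -0.435 and -0.433. Among its genes were Ttr, the thyroxine carrier transthyretin, Kcnj13, a potassium channel, Folr1, the folate receptor that carries folate into cerebrospinal fluid, Kl, the klotho gene, and Otx2, a transcription factor of the choroid plexus. Kcnj13 had intensities of 724, 4098, 809, 1947, 1229 and 1528 in mice 1 to 6, and Folr1 had 322, 1240.1, 360.2, 645, 481 and 518. Both genes placed the mice in a graded order, with mouse 2 first, mouse 4 next, mice 5 and 6 in between and mice 1 and 3 last. Ttr, the most intense of them, ran from 5475 in mouse 1 to 13266 in mouse 2.

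Other members were Igf2 and Igfbp2, a growth factor and a protein that binds it, Ace, the angiotensin converting enzyme, Lepr, the leptin receptor, and the cilium genes Cfap61, Cfap126, Drc7, Spef2 and Dnah6. Igf2 ran from 1519 to 2867 and Ace from 377 to 1062, in both cases with mouse 2 highest and mouse 3 lowest. The only microRNA gene in the group was Mir568, whose cluster ran from 1102 in mouse 3 to 2097 in mouse 2. The array measures the transcript over this locus and not the mature microRNA, and it cannot be told here whether the signal came from the microRNA precursor or from a host transcript. The mature sequence is shown because it identifies that member of the group. It is taken from RefSeq (GRCm38.p6, chr16:43640665-43640684, + strand), with the seed, bases 2 to 8, in capitals.
mmu-miR-568: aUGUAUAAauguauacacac

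This group varied in MSN mice as well. Its median SD was 0.411 in ICR mice, 0.260 without mouse 2 and 0.373 in MSN mice, and the median correlation between pairs of its clusters was 0.931 in ICR and 0.892 in MSN mice. The list of choroid plexus and ependyma markers had 15 eligible genes, 12 of them among the 200 and all 12 in this group, and mouse 2 was highest in 15 of 15, beside 25.5% of all eligible genes. Its median SD was 0.617, or 0.390 without mouse 2, and 0.506 in MSN mice. The summed intensity of the list was 9379, 27342, 9861, 17397, 13905 and 14365 in mice 1 to 6. The ependymal genes Foxj1 and Ccdc153, of ciliated cells, had SDs of 0.122 and 0.0799, far below the median of the list, and were likewise highest in mouse 2. Of the 200 clusters, 45 had an r of 0.8 or more with this profile, beside 7.77% of eligible clusters. The choice by SD and the 12 genes of the list among the 200 raise this count as well. How high it would be without them was not computed. How much of the variation in these genes is the amount of choroid plexus in the dissection, and how much the RNA level per cell, cannot be told apart in bulk tissue.

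**Figure D2:**
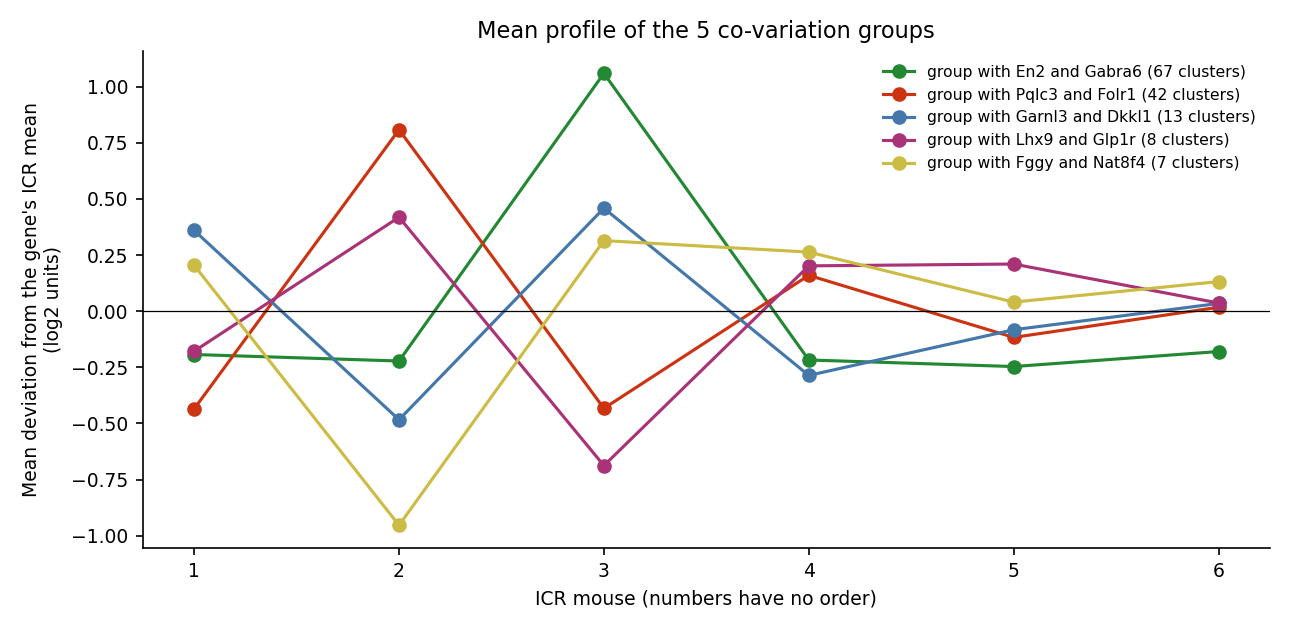
Mean deviation from each gene's ICR mean (log2 units) in the 6 ICR mice for the 5 groups of co-varying clusters; each line joins the values of 1 group, and the numbers of the mice have no order. Mouse 3 sets the group with En2 and Gabra6 (1.06) and mouse 2 the group with Pqlc3 and Folr1 (0.808).

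The third group held 13 genes that were high in mice 1 and 3 and low in mice 2 and 4. Mef2c, a transcription factor of excitatory neurons, had intensities of 3664, 2164, 3949.9, 2527, 2924 and 3318. Cckbr, the brain receptor for cholecystokinin, had 935, 326, 1024, 545, 622 and 711, and Lamp5, a membrane protein of cortical neurons, had 1771, 975, 2032, 1045, 1319.9 and 1281. Sema3a and Efna5, which guide axons, and Rims3, a protein of the presynaptic active zone, were also in it. The median SD was 0.359, 0.312 without mouse 3 and 0.321 without mouse 2. The pairs of this group were correlated at a median of 0.830 in MSN mice too, where the median SD was 0.246.

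The remaining groups were smaller. The group with Lhx9, a LIM homeobox factor, and Glp1r, the receptor for glucagon-like peptide 1, held 8 genes, had a mean deviation of -0.688 in mouse 3 and had a median SD of 0.383, or 0.222 without that mouse. Glp1r was at 237 in mouse 3 and at 416 to 635 in the others. The group with Fggy, a carbohydrate kinase gene, and Nat8f4, an N-acetyltransferase gene, held 7 clusters of 5 genes, had a mean deviation of -0.953 in mouse 2 and had a median SD of 0.493, or 0.131 without mouse 2. Nat8f4 was at 141 in mouse 2 and at 558 to 634 in the others. In MSN mice the median correlation between pairs was 0.393 in the first of these groups and 0.547 in the second.

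A further 63 clusters were placed in none of these groups, and most of the genes in which the mice fell into separate levels were among them. A cluster was counted as bimodal when the largest gap between neighbouring sorted log2 values had at least 2 mice on each side, was at least 0.5 and was wider than the range inside either side. This held for 16 of the 200 clusters, from 15 genes, and for 19 of all 18628 (0.102%). Since a gap widens the SD, most such clusters had to fall among the 200. With a gap of 0.25 or more, 32 of the 200 and 143 of the 18628 (0.768%) were counted, and with a gap of 1 or more, 1. By the rule of 0.5, 15 of the 18628 clusters (0.0805%) were bimodal in MSN mice, and none in both. With 6 mice the shape of a distribution cannot be tested, and the mice on the sides of a gap were not averaged or compared.

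**Figure D3:**
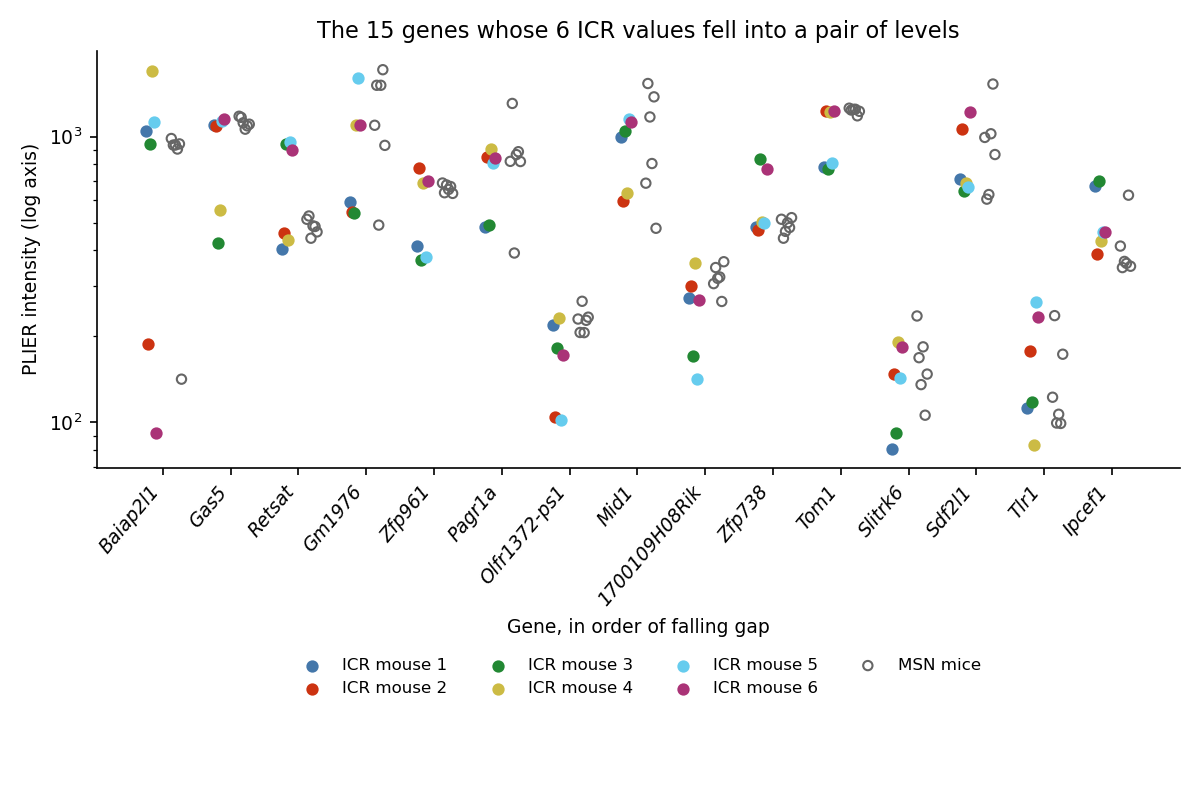
Intensity (log axis) of the 15 genes among the 200 whose 6 ICR values fell into separate levels, in order of falling gap; filled points are the 6 ICR mice, with the cluster of higher SD for Tom1, and open circles are the 6 MSN mice. For Gas5, Retsat, Zfp961, Zfp738 and Tom1 the MSN mice all lie near one of the levels of the ICR mice, whereas for Baiap2l1 1 MSN mouse lies low and 5 lie high.

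Baiap2l1, which codes for a protein that bends membranes and binds actin, had the widest gap, at 2.23 log2 units. Its intensities were 1044, 189, 942, 1699.6, 1124 and 92.1 in mice 1 to 6, so that mice 2 and 6 were low. It had an SD of 1.60 in ICR mice and 1.06 in MSN mice, of which 1 was at 142 and 5 were between 904 and 985. It was the sole cluster whose gap was 1 log2 unit or more.

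Other gaps were narrower and split the mice in different ways. Gas5, a long noncoding RNA gene that hosts small nucleolar RNAs, was at 426 and 552 in mice 3 and 4 and at 1089.5 to 1149.8 in the others. Retsat, which encodes retinol saturase, was at 405 to 462 in mice 1, 2 and 4 and at 900.0 to 956 in mice 3, 5 and 6. Zfp738, a zinc finger gene, was at 838 and 768 in mice 3 and 6 and at 473 to 502 in the others. Each MSN mouse lay on the upper side for Gas5, at 1061 to 1178, and on the lower side for Retsat, at 441 to 527, and for Zfp738, at 441 to 520.5.

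Tom1, which works in endosomal sorting, showed the tightest levels. It was at 784, 773 and 809 in mice 1, 3 and 5 and at 1225, 1215 and 1230.1 in mice 2, 4 and 6, while MSN mice were between 1182 and 1257, with an SD of 0.0313. A second cluster of Tom1 gave nearly the same values on each array and is not independent of the first. Zfp961, another zinc finger gene of chromosome 8, divided the same mice, with 414, 371 and 379 in mice 1, 3 and 5 and 777, 686 and 698 in mice 2, 4 and 6. The 2 genes are 20 eligible genes apart in RefSeq order (GRCm38.p6) and were correlated at 0.985 over the 6 mice.

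Of the 16 bimodal clusters 8 had an SD below 0.2 in MSN mice, and the SDs of all 16 there ran from 0.0312 to 1.06. Mid1, an X-linked ubiquitin ligase gene that spans the pseudoautosomal boundary in laboratory mice, was at 597 and 634 in mice 2 and 4 and at 993 to 1150.4 in the others, and varied more in MSN mice, with an SD of 0.637 against 0.417. Tlr1, a receptor for bacterial lipopeptides, was at 83.3 to 118 in mice 1, 3 and 4 and at 178 to 264 in mice 2, 5 and 6. Its neighbour Tlr6, the related receptor, followed it at an r of 0.972. H13, Rnase1 and Vps72 met the rule outside the 200, at ranks 212, 213 and 216. H13, the signal peptide peptidase gene, was at 1538 and 1614 in mice 2 and 4 and at 2403 to 2479 in the other 4.

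The other bimodal genes divided the mice in ways of their own. Gm1976, a predicted gene, was at 541 to 592 in mice 1, 2 and 3 and at 1098 to 1599.9 in mice 4, 5 and 6, with SDs of 0.653 in ICR and 0.658 in MSN mice. Pagr1a, which encodes a partner of histone methyltransferase complexes, was at 482 and 491 in mice 1 and 3 and at 808 to 906 in the others. Slitrk6, a synaptic adhesion protein gene, was low in the same mice, at 80.8 and 92.0 against 143 to 191, close to the level limit.

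Ipcef1, the sole bimodal gene inside a group, was high in mice 1 and 3, at 669 and 699.8, and at 388 to 464 in the others. Olfr1372-ps1, an olfactory receptor pseudogene, was low in mice 2 and 5, at 105 and 102 against 172 to 233, and 1700109H08Rik was low in mice 3 and 5, at 170.3 and 142 against 268 to 362. In MSN mice these 2 had SDs of 0.126 and 0.153 and no mouse on the low side. Outside the 200, Rnase1, a secreted ribonuclease gene, was high in mice 2 and 3, at 669 and 693 against 416 to 461, and Vps72, a chromatin protein gene, was low in mice 1 and 4, at 482 and 499 against 715 to 778.

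Whether such levels extended to neighbouring genes was examined for the bimodal clusters of the 200. Within 20 eligible genes on each side, 11 of 618 pairs (1.78%) had an absolute r of 0.9 or more. This share is close to the 1.91% found for all pairs of clusters of different genes at that distance. The shares were not counted alike, because Zfp961 and Tom1 entered the first in both directions and with both Tom1 clusters. In the second, each pair of clusters entered once. A sequence variant beneath the probes and a difference in RNA level give the same kind of signal on an array and cannot be told apart here.

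Single mice also stood alone, in genes inside and outside the groups. By Dixon's ratio 72 of the 200 clusters (36%) had 1 mouse apart from the other 5, beside 6.41% of eligible clusters. This share is raised by the choice of a high SD, which a lone value produces. Mouse 3 accounted for 57 of the 72, mouse 2 for 8, mouse 1 for 4, mouse 4 for 2 and mouse 5 for 1. The 72 include clusters of the groups, such as Gabra6 and Nat8f4, whereas H4c4 and Snord53 were outside them. H4c4, which encodes histone H4, was at 1137 in mouse 1 and at 4114 to 6337 in the others, and MSN mice were between 1113 and 1309.6. Histone H4 genes are near-identical in their coding sequence, so the gene behind this signal is uncertain. Snord53, a small nucleolar RNA gene, was at 1559.8 in mouse 5 and at 236 to 309.6 in the others, and among MSN mice it was at 1562 and 1711 in 2 and at 259.5 to 296 in 4.

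Some further genes were singled out after their values were seen. Opcml, a cell adhesion molecule of the neuronal surface, had 2104, 4135, 5493, 6098, 6098 and 5908 in mice 1 to 6, while MSN mice stayed between 5612 and 5966. Its SD was 0.601 in ICR and 0.0347 in MSN mice. Nt5dc3 was at 3812 in mouse 4 and at 2004 to 2293 in the other ICR mice, whereas 5 MSN mice were at 583 to 656 and 1 was at 2347. Kcnj16, an inward rectifier potassium channel gene, was at 259.9 in mouse 1 and at 547 to 713 in the others, and in MSN mice 4 were at 229 to 289 and 2 at 708 and 953. The ICR and MSN ranges overlapped for Nt5dc3 and Kcnj16. Rpa3, a subunit of the replication protein that binds single-stranded DNA, had gaps of 0.483 and 0.421 in its 2 clusters, short of the limit of 0.5. Both clusters placed mice 1, 2 and 3, at 317 to 350.0 in the first, below mice 4, 5 and 6, at 496 to 648. Ifit3, an interferon-induced gene, was at 541 and 614 in mice 4 and 6 and at 347 to 380.5 in the others, with an SD of 0.337 in ICR and 0.124 in MSN mice. Mpeg1, a pore-forming protein of macrophages and microglia, was at 192 and 135 in mice 4 and 6 and at 265 to 346 in the others. The microglia list as a whole did not share this order, with mean deviations of 0.0357 and 0.0508 log2 units in mice 4 and 6 and 4 of its 10 genes highest in mouse 6.

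The SDs of the 200 clusters in MSN mice show which of them also varied in a second set of arrays. Because the 200 were chosen for a high SD in ICR mice, a lower SD elsewhere follows in part from the choice, and the comparison was not tested. Their median SD was 0.394 in ICR mice and 0.185 in MSN mice, beside 0.0808 for all eligible clusters. In MSN mice 73 of the 200 were also among the 200 clusters with the highest SD, 17 had a higher SD than in ICR mice and 25 fell below the MSN median. Egr2, a transcription factor induced by neuronal activity, was one of the 17, with SDs of 0.328 in ICR and 0.689 in MSN mice.

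**Figure D4:**
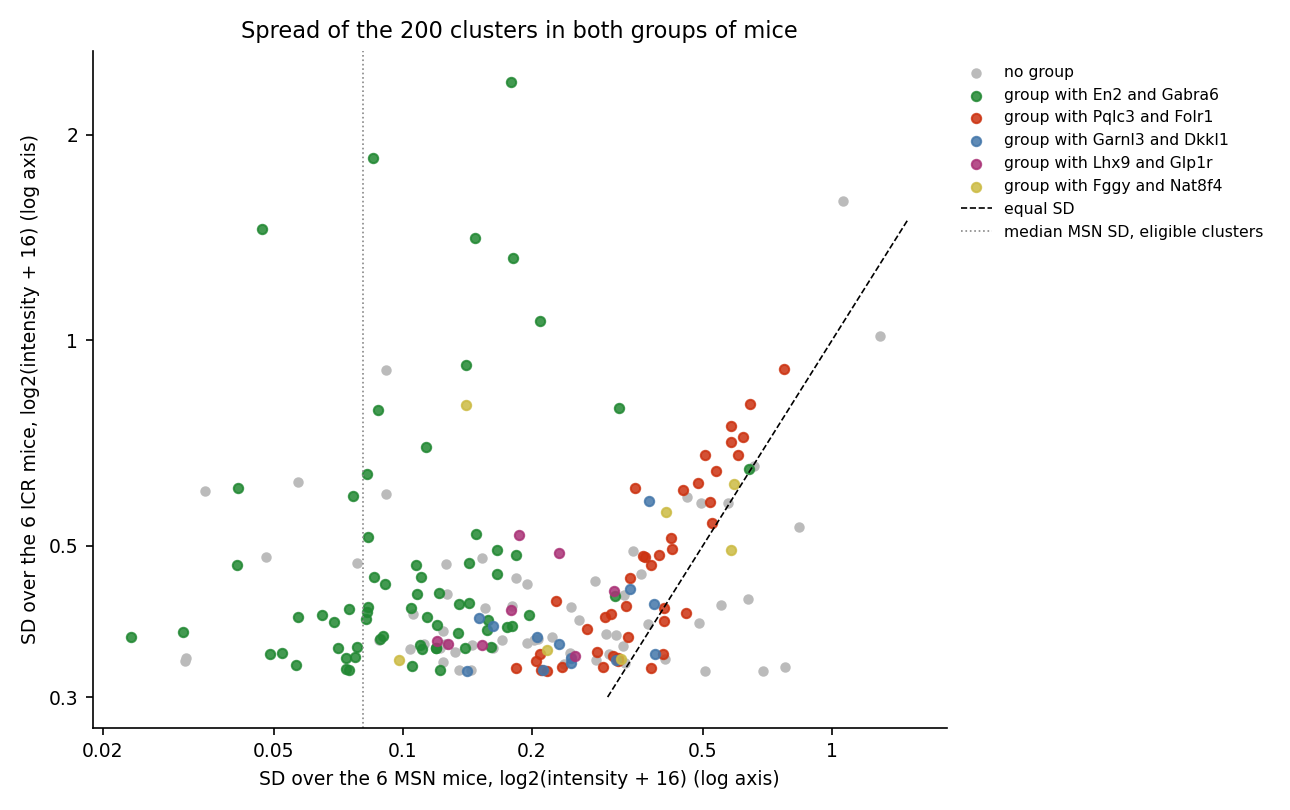
SD over the 6 ICR mice against SD over the 6 MSN mice for the 200 clusters (both axes logarithmic, log2 intensity units); colours mark the 5 co-varying groups, the dashed line marks equal SDs and the dotted line the MSN median of all eligible clusters (0.0808). The group with Pqlc3 and Folr1 lies along the line of equal SDs and most of the group with En2 and Gabra6 lies far to its left. Zic1, of the latter group, lies close to the line.

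Gene lists for cell types and functions put the same pattern on a common scale. They were scored by the median SD of their genes, 1 cluster per gene, beside 0.0796 for all eligible genes. After choroid plexus and cerebellar markers came meninges and fibroblasts at 0.238, ventral hippocampus at 0.225, dentate gyrus at 0.192 and immediate early genes at 0.172. The lists for ventral hippocampus and dentate gyrus had lower medians without mouse 3, at 0.182 and 0.148. Dsp, which encodes the junction protein desmoplakin, was at 312 in mouse 3 and at 397 to 548 in the others, and Trhr, the receptor for thyrotropin-releasing hormone, was at 149 against 229.7 to 362. Both were picked as the genes of highest SD in their lists. Of the dentate genes 8 of 10 were lowest in mouse 3 and 1, Calb1, was highest there, at 3616. Of the ventral genes 4 of 9 were lowest in mouse 3 and 2, Etv1 and Col5a1, were highest there. Over all eligible genes, 25.5% were lowest in that mouse. Low values in mouse 3 were not particular to these lists. Of the microglia genes 9 of 10 were lowest there, as were 6 of 11 genes of meninges and fibroblasts. Of the mature oligodendrocyte genes 0 of 11 were. The summed intensity of the ventral list in mouse 3, 10784, lay within the range of 10332 to 12640.2 of the other mice.

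At the other end of the scale, 5 lists lay below the median of all genes. They were the respiratory chain at 0.0532, reference genes at 0.0619, the 4 eligible male sex chromosome genes at 0.0655, the 6 eligible targets of the study's RT-qPCR at 0.0673 and clock genes at 0.0783. Of the RT-qPCR targets, Cat, which encodes catalase, had the highest SD, 0.148, with intensities of 1445 to 1964. Glial lists lay slightly above it, with 0.0895 for astrocytes, 0.109 for microglia and 0.112 for mature oligodendrocytes. Gfap, the intermediate filament of astrocytes, ran from 1455 in mouse 6 to 2238 in mouse 2. Pituitary markers had a median of 0.0977, and of these Gh, the growth hormone gene, was highest in mouse 6, at 401, and at 182 to 292 in the others.

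**Figure D5:**
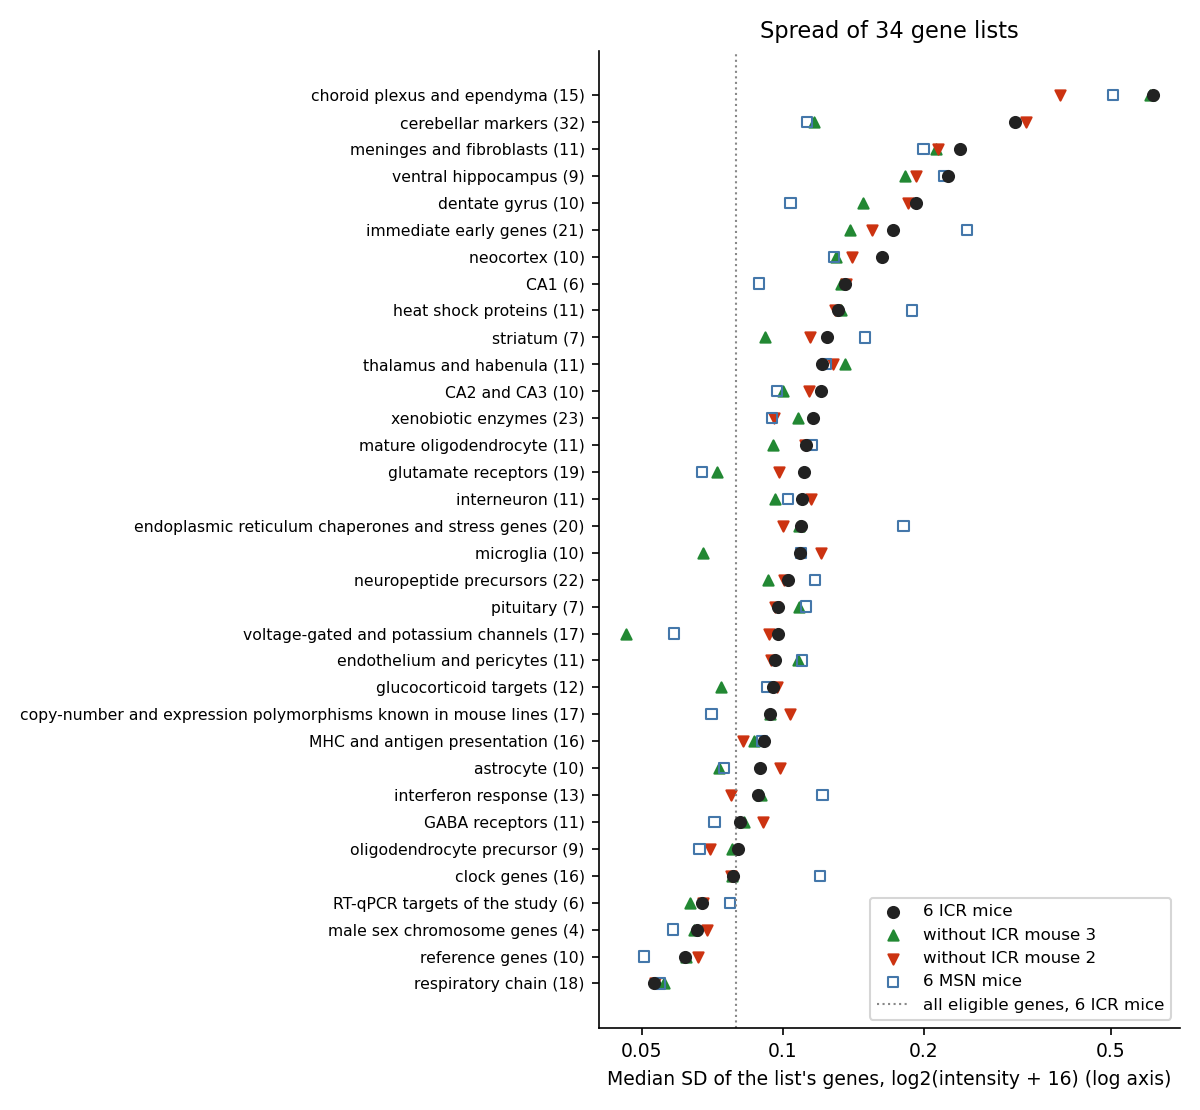
Median SD (log axis, log2 intensity units) of the genes of 34 lists, with the number of eligible genes of each in parentheses (the blood list, with 2 eligible genes, is not drawn); filled circles are the 6 ICR mice, triangles the same without mouse 3 or without mouse 2, and open squares the 6 MSN mice. Choroid plexus and ependyma lie at 0.617 and the respiratory chain at 0.0532, and the cerebellar list drops from 0.312 to 0.116 without mouse 3.

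Immediate early genes, which neurons switch on within minutes of activity, were highest in mouse 1 in 15 of 21 genes, beside 18.6% of all eligible genes. Arc, a regulator of synapses, had intensities of 1502, 1076, 796, 934, 988 and 1048 in mice 1 to 6, and Fos, a subunit of the AP-1 transcription factor, had 248, 149.7, 130.4, 145, 156 and 193. Nr4a1, a nuclear receptor gene, was at 1609.6 in mouse 1 and at 1012 to 1254 in the others. Mouse 3 had the lowest value of both Arc and Fos. Egr2 was the only member among the 200, and the median SD of the list was 0.172 in ICR mice and 0.247 in MSN mice.

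Sdf2l1, a chaperone component of the endoplasmic reticulum (ER), was among the bimodal genes. It was at 1059.7 and 1219 in mice 2 and 6 and at 647 to 713 in the other 4 mice. A list of 20 ER chaperone and stress genes, written after this had been seen, had a median SD of 0.109 in ICR mice and 0.181 in MSN mice, and Sdf2l1 was its only member among the 200. Hspa5, the main ER chaperone BiP, had 3402, 4087, 3028, 2993, 3153 and 4227 in mice 1 to 6. Creld2, a secreted protein of ER stress, had 684, 889.5, 668, 714, 666 and 907, and Pdia4, a disulfide isomerase, had 1510.3, 1788, 1309, 1357, 1374 and 1862. Mice 2 and 6 were the highest pair in 11 of the 20 genes, beside 9.44% of all eligible genes.

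The unfolded protein response is known to act on these genes through the ER stress element, the letters CCAAT followed by any 9 bases and then CCACG, which was searched on both strands in the 250 bases before the start of each gene in RefSeq (GRCm38.p6). It was present in 37 of 32817 promoters (0.113%) and in 8 of the 18 promoters of ER list genes in the table, those of Calr, Canx, Creld2, Dnajc3, Hsp90b1, Hspa5, Pdia6 and Syvn1. Of these genes Syvn1, with an SD of 0.0712, and Canx, with 0.0349, varied little. The promoters of Hspa5 and Creld2 are shown because they hold a match and mice 2 and 6 were highest in both genes, and that of Sdf2l1 because it was the member among the 200. Matches are in capitals, and that in Creld2 is on the opposite strand.
Hspa5 (chr2:34771840-34772089, + strand): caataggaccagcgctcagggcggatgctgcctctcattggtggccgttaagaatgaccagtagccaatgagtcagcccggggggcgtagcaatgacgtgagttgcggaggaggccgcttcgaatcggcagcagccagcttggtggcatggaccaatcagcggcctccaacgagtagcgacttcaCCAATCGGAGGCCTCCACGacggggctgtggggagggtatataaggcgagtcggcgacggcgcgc
Creld2 (chr15:88819396-88819645, + strand): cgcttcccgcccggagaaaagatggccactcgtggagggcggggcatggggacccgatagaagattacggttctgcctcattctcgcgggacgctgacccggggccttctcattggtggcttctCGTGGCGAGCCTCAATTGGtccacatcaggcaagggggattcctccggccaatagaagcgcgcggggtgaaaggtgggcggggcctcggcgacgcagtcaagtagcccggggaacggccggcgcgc
Sdf2l1 (chr16:17132384-17132633, - strand): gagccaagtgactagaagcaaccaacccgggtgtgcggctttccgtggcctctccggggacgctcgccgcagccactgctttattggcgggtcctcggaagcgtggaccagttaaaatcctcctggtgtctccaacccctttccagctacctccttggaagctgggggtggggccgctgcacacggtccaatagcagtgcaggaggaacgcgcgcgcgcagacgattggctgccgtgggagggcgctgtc
The window of Sdf2l1 held no match to these letters, which says nothing of the factor. The list was made of ER chaperone and stress genes, so its higher share of promoters with the element follows in part from that choice. A match is a description of the sequence, and neither binding nor its part in the levels was tested.

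A second motif was searched for the group with the choroid plexus genes, the core TAATCC that is bound by OTX2. On either strand it was present in 6.25% of all promoters, in 3 of 50 promoters of the group (6.00%) and in 1 of 13 promoters of the choroid plexus list (7.69%). These shares are close to that of all promoters.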

How the data were processed

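Total RNA of each hippocampus was labeled and hybridized to 1 array. The authors used Affymetrix Power Tools 1.12.0 to correct the background by GC bin and to summarize the probes of each cluster with PLIER, and deposited 1 intensity per cluster and array, linear and already normalized. Here 16 was added and log2 was taken, which narrows the spread of dim clusters. Python 3.11.15 with numpy 2.4.6, scipy 1.17.1, pandas 2.3.3 and statsmodels 0.14.6 was used. The code of the grouping and gap rules was only tried on simulated data. That trial gives no error rate for the limits used here, and no conclusion is drawn from it. Of 21789 single-gene clusters of the platform table, 21698 were matched to RefSeq. Deviations of same-numbered mice of both lines were correlated at -0.175 to 0.137, so the numbers were not treated as pairs.

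The members and gene lists were chosen with earlier results of these data known. Genes named by rule were the 15 with the highest SD, the 15 bimodal clusters with the widest gap, the 4 closest to each group's mean profile, up to 3 of each list and the clusters on either side of rank 200; others were chosen after their values were seen. A lone mouse was called where Dixon's ratio exceeded 0.625, its 95% critical value for 6 values. Alternatives were other pseudocounts, normalizations, level limits, grouping and gap limits, and leaving out each mouse. The authors' limma comparison was not used.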

Additional observations from a re-analysis of the deposited data

Results flagged for a closer look

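Of the 77 clusters named by rule, 18 had 1 ICR mouse apart from the other 5 by Dixon's ratio, the gap to the nearest mouse divided by the whole range, where chance marks about 1 in 20 groups of 6. These clusters were picked for a high SD, which raises the share. Mouse 3 was the lone high mouse for Gabra6 (ratio 0.920), Cbln3 (0.913), Ppp1r17 (0.973), Arhgef33 (0.910), Car8 (0.907), Cbln1 (0.713), En2 (0.940), Exph5 (0.669), Fat2 (0.892), Pvalb (0.835), Grm4 (0.831) and Gabrd (0.650), and the lone low mouse for the small nucleolar RNA gene Snord14e (0.840). Mouse 2 was the lone low mouse for Nat8f4 (0.912), Fggy (0.864) and Dnajb7 (0.632). Mouse 5 was alone and high for Snord53 (0.861), and mouse 1 was alone and low for H4c4 (0.748). The median absolute deviation per mouse had no lone value in either line.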

How the results depend on the processing

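The median SD of 0.0797 was 0.0716 with a pseudocount of 64, 0.0734 at a mean log2 of 8 or more and 0.0888 over all clusters, and without single ICR mice it ran from 0.0744 to 0.0804. Of the 200 clusters, 120 to 188 remained without single mice, the fewest without mouse 3, 99 remained with the median absolute deviation in place of the SD, and 74 remained with all clusters, since clusters without a single named gene took the other places. After clusters that follow the cerebellar or choroid plexus profile were left out, a setting chosen after seeing the data, 62 remained. The groups held 133 to 178 clusters and the bimodal rule 13 to 21 without single mice or under the normalizations, pseudocounts and level limits. Bimodal clusters were 46 with all clusters, 32 at a gap of 0.25 and 1 at a gap of 1. An average r of 0.9 left 109 clusters in groups. The difference in deviation per mouse was at an exact permutation P-value of 0.316 to 0.983 over 22 settings, 6 of which changed its sign, and at 0.938 for sign flips with the replicate number as a block, where its value was -0.000467. The SD of 77 named clusters moved by less than its approximate standard error under both pseudocounts and both normalizations, while 22 moved without mouse 3 and 13 without mouse 2. The 6 arrays limit the precision of every SD, and dim clusters near the level limit are the least precise.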
